A study of Bos indicus with 8 samples.

Results

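Cholesterol synthesis, sterol sensing and lipoprotein uptake were followed through 8 genes in cattle cumulus cells, which are somatic cells of the follicle attached to the oocyte: HMGCS1, IDI1, FDFT1, SQLE, LSS, DHCR7, INSIG1 and SCARB1. Members were all probes that the platform annotation names by one of these 8 symbols, out of 15229 symbols on the array. This gave 14 probes of 43794, and 13 of the 14 were bright enough to test. The FSH pools were cultured for 6 h as cumulus-oocyte complexes with 0.5 µg/ml of FSH, follicle-stimulating hormone of human sequence made as a recombinant protein, and the control pools were cultured without it. Both kinds of pool were kept in the same Hepes-buffered medium with 10% fetal bovine serum, pyruvate, estradiol (1 µg/ml) and adenosine (3 mM), so the comparison concerns FSH in the presence of adenosine and of serum, which itself carries lipoproteins. Complexes came from follicles of 3 to 6 mm in slaughterhouse ovaries, and the organism is labelled Bos indicus. The samples comprised 4 FSH pools and 4 control pools, each pool of 10 (the labels do not say 10 of what). RNA was amplified linearly and hybridised to 2-colour arrays, and each FSH pool shared 2 arrays, with the dyes exchanged, with the control pool that bears its number. The group was named for LDL uptake, but its only lipoprotein receptor gene, SCARB1, is best known as a receptor for high-density lipoprotein.

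Cells make cholesterol from acetyl-CoA through mevalonate, isoprenoid units, squalene and lanosterol. When sterols in the endoplasmic reticulum run low, the escort protein SCAP carries SREBP-2, the product of SREBF2, to the Golgi, where it is cut to an active transcription factor for the synthesis genes. When sterols are plentiful, INSIG proteins hold SCAP back. In the mouse, cumulus cells make cholesterol that reaches the oocyte, which makes little of its own, and granulosa cells also draw on lipoproteins to make steroid hormones.

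Values are log2 ratios of FSH over control from the authors' series matrix, with the 2 arrays of a replicate averaged to 1 value. A ratio below 0 means that the signal was lower with FSH than in the control. Signals of single channels, computed from the scanner files, are given on a normalized log2 scale, and levels of different probes cannot be compared. The median raw signal of an array ranged from 55.7 to 184.3 in the Cy3 channel and from 26.6 to 59.0 in the Cy5 channel. The share of probes above the negative controls was 42.4% to 86.3% in the FSH channel, and in the control channel 33.8% to 46.2% for replicate 3 and 68.8% to 83.9% for the others. Of 17 cumulus and granulosa markers, 16 were tested and 10 exceeded the limit on all arrays in both channels, while FOXL2 was too dim to test and AMHR2 exceeded it on 5 arrays in the FSH channel and 3 in the control channel. Their summed normalized signal was 57229 to 73294 in FSH pools and 59359 to 82172 in control pools. Of 17 oocyte markers, 2 exceeded the limit on all arrays in both channels. Their summed signal was 1620 to 1700 in the 4 FSH pools, and 1638, 1641, 3080 and 2017 in control pools 1 to 4. Sums for theca, stroma and endothelium were 7598 to 14419 in FSH pools and 7533 to 15966 in control pools, those for immune cells 769 to 1530 and 807 to 1844, and those for red blood cells 279 to 321 and 295 to 327, in the same order. These signals carry an offset of 50 added before normalization, so probes at the level of the negative controls still add to each sum. Among the control pools, pool 3 had the highest oocyte and immune sums and the lowest sums of the other marker lists. In such bulk pools, fewer cells of a type and less RNA per cell cannot be told apart. Each test rests on 4 replicate values, which limits its precision.

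SQLE and SCARB1 stood furthest from 0 among the 8 genes, both below it, and INSIG1 had a mean below 0 on each of its 3 probes. The other 5 genes had mean ratios between -0.18 and 0.065 on their brightest probes. No member passed the test: limma called 0 of 32187 probes at an adjusted p under 0.05 (0% of probes, lowest adjusted p = 0.179) and 0 of the 13 member probes. At an unadjusted p under 0.05, 3 of the 13 member probes were lower with FSH and 0 higher, namely SQLE, SCARB1 and 1 of the INSIG1 probes. Over all probes this held for 4.75% in the lower and 5.97% in the higher direction. With each gene taken by its brightest probe, 6 of the 8 members had a mean below 0, against 49.3% of 12321 genes tested. Over the 8 genes the median of the mean ratio was -0.18, against 0.0027 over all genes, and the medians in replicates 1 to 4 were 0.027, -0.21, -0.26 and -0.38. When the scanner ratios were only centred on the array median, without loess, the median of the 8 genes was 0.0061, against 0.049 over all genes.

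**Figure D1:**
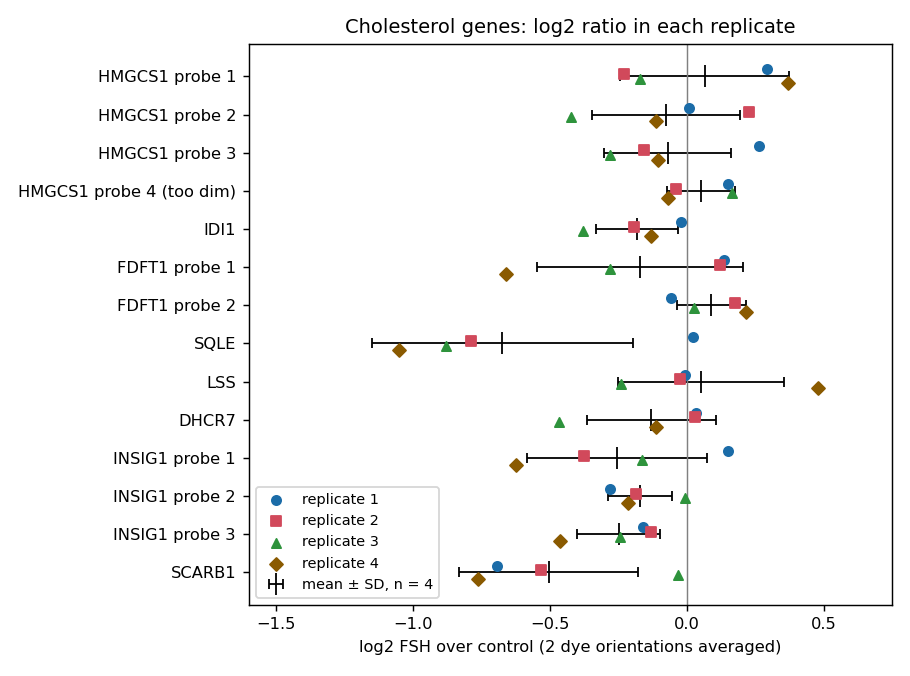
Log2 ratio of FSH over control (x axis) for the 14 member probes, with 1 symbol per replicate and the mean ± SD of the 4 replicates as a black bar; probes of a gene are numbered by brightness. Replicates 2, 3 and 4 of SQLE lie between -0.79 and -1.05 and its replicate 1 at 0.020, whereas replicates 1, 2 and 4 of SCARB1 lie between -0.53 and -0.76 and its replicate 3 at -0.035.

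SQLE encodes squalene epoxidase, which adds oxygen to squalene and is a rate-controlling enzyme of the sterol branch. It was measured by 1 probe, EMBV3_21019, bright on all 8 arrays in both channels. Log2 ratios of FSH over control were 0.020, -0.79, -0.88 and -1.05 in replicates 1 to 4. Replicates 2, 3 and 4 were thus alike, and replicate 1 stood apart at 0. On the 2 arrays of replicate 1 the ratio was -0.0098 and 0.050, while the 6 arrays of the other replicates lay between -0.70 and -1.12. The mean was -0.68 ± 0.48 (SD, n = 4), a 0.626-fold level, with a 95% interval of -1.10 to -0.25. By limma the unadjusted p was 0.00785 and the adjusted p 0.335. With scanner values the mean was -0.81 with loess and -0.50 when centred on the median with no loess, with limma adjusted p of 0.505 and 0.776. From the scanner files, the normalized log2 signal was 11.29, 10.83, 11.17 and 10.58 in FSH pools 1 to 4. In control pools 1 to 4 it was 11.5, 11.67, 12.12 and 11.86. In replicate 1 the scanner signal was thus lower with FSH, whereas the series matrix ratio was 0.020. The highest was control pool 3, which was also the highest or lowest control pool in each marker sum. The mean ratio without replicate 3 was -0.61. All 4 FSH pools therefore lay below all 4 control pools, which held for 2 of the 13 member probes (the other was EMBV3_18281 of INSIG1) and for 1.73% of 32023 probes, while the FSH pools all lay above for 1.67%. A limma fit to all 8 arrays with the replicate number as a block gave an adjusted p of 0.0298, and 0.0396 with an added dye term. These blocked fits enter 2 arrays of the same RNA as separate values, linked by a correlation shared by all probes. It was 0.288, and 0.508 with the dye term. For SQLE the 2 arrays of a replicate differed by 0.14 on average, against an SD of 0.48 between replicates. The shared correlation can therefore make its blocked p too small, and blocked fits of other genes use the same correlation. The block called 1.86% of all probes (1.03% lower with FSH, 0.823% higher), and the block with a dye term 1.34% (0.770% lower, 0.565% higher).

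SCARB1 encodes scavenger receptor class B member 1, which takes up cholesteryl esters from high-density lipoprotein. Its single probe, EMBV3_42803, exceeded the limit on all 8 arrays in both channels. Log2 ratios were -0.69, -0.53, -0.035 and -0.76 in replicates 1 to 4. All 4 values were below 0, as for 8.21% of probes (11.4% were above 0 in all 4), but replicate 3 lay next to 0. The mean was -0.51 ± 0.33 (SD, n = 4), a 0.704-fold level, with a 95% interval of -0.83 to -0.18. The limma fit gave an unadjusted p of 0.0080 and an adjusted p of 0.335. Both arrays of replicate 3 were near 0, at -0.028 and -0.041, and the other 6 arrays lay between -0.48 and -0.86. In single channels the log2 signal was 8.20, 8.07, 7.89 and 7.84 in FSH pools 1 to 4, and 8.86, 8.33, 7.89 and 8.39 in control pools 1 to 4. The groups overlapped, because control pool 3 was as low as the FSH pools. Control pool 3 also had the highest oocyte and immune and the lowest cumulus and granulosa marker sums of the control pools. Its replicate had the smallest share of control channel probes above the limit. The part of these traits in the SCARB1 value was not tested. Without replicate 3 the mean ratio was -0.66 and the limma adjusted p 0.104, and the mean was -0.19 when scanner values were centred on the median with no loess. The blocked limma fit gave an adjusted p of 0.0383, and 0.0595 with the dye term. The replicate nearest to 0 was replicate 1 for SQLE and replicate 3 for SCARB1, and replicate 4 had the lowest ratio of both genes. Without replicate 4 the means were -0.55 for SQLE and -0.42 for SCARB1.

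**Figure D2:**
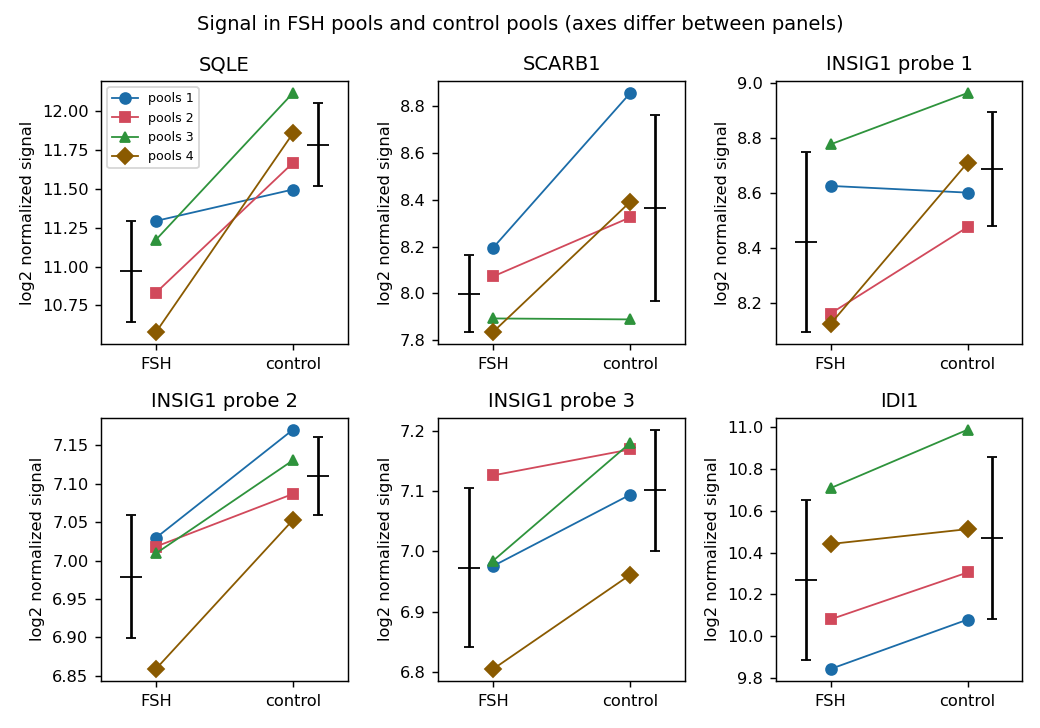
Normalized log2 signal of SQLE, SCARB1, the 3 INSIG1 probes and IDI1 in the 4 FSH pools (left in each panel) and the 4 control pools (right), with lines joining pools of the same replicate number and bars giving the mean ± SD of 4 pools; the y axes differ between panels. FSH pools of SQLE reach 11.29 at most and its control pools 11.5 at least, and control pool 3 of SCARB1 lies at 7.89, level with FSH pool 3.

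INSIG1 encodes the endoplasmic reticulum protein that retains SCAP when sterols are high, and its own gene is a target of SREBP. It was covered by 3 probes. On the brightest, EMBV3_36644, the log2 ratios in replicates 1 to 4 were 0.15, -0.38, -0.17 and -0.63, with a mean of -0.25 ± 0.33 (SD, n = 4). Its signal was 8.62, 8.16, 8.78 and 8.12 in FSH pools 1 to 4, against 8.6, 8.47, 8.96 and 8.71 in control pools 1 to 4, and the groups overlapped. As for SQLE, replicate 1 was the only one not below 0 on this probe. On EMBV3_40898 all 4 ratios were below 0, at -0.16, -0.13, -0.24 and -0.46, with a mean of -0.25 ± 0.15 and an unadjusted p of 0.0296 by limma. On EMBV3_18281 all 4 were below 0 as well, at -0.28, -0.19, -0.0090 and -0.21, with a mean of -0.17 ± 0.12. The last probe differed between the dye orientations, with a mean of -0.47 on arrays with FSH in Cy5 and 0.12 on arrays with FSH in Cy3. The limma adjusted p of the FSH effect was 0.551 for EMBV3_36644, 0.419 for EMBV3_40898 and 0.522 for EMBV3_18281. The 3 probes target 1 gene and share arrays, so they are not separate replicates. Centred on the median with no loess, the 3 means lay closer to 0, at -0.087, -0.056 and -0.045 for EMBV3_36644, EMBV3_18281 and EMBV3_40898.

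Enzymes at the start of the pathway had small ratios. HMGCS1, the cytosolic enzyme that makes HMG-CoA, was covered by 4 probes. The brightest, EMBV3_14732, had log2 ratios of 0.29, -0.23, -0.17 and 0.37 in replicates 1 to 4. The replicates split between both sides of 0, with a mean of 0.065 ± 0.31 (SD, n = 4) and a 95% interval of -0.24 to 0.37, and the mean was 0.28 when centred on the median with no loess. Means on the other tested probes were -0.076 ± 0.27 for EMBV3_28348 and -0.071 ± 0.23 for EMBV3_08646, and EMBV3_24024 was too dim to test, with a ratio of 0.051 ± 0.12. Limma adjusted p lay between 0.855 and 0.895 for the 3 tested probes. IDI1 encodes isopentenyl diphosphate isomerase, which balances the isoprenoid building blocks. Its ratios of -0.022, -0.19, -0.38 and -0.13 were below 0 in all 4 replicates, with a mean of -0.18 ± 0.15 and a limma adjusted p of 0.532. With scanner values centred on the median and no loess, the IDI1 mean was 0.074.

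Mean ratios of the other members of the sterol branch lay closer to 0 than that of SQLE. FDFT1 encodes squalene synthase, the step just before SQLE. On its bright probe EMBV3_14929 the log2 ratios were 0.13, 0.12, -0.28 and -0.66 in replicates 1 to 4, with a mean of -0.17 ± 0.38 (SD, n = 4), and 0.11 when centred on the median with no loess. Replicates 1 and 2 lay above 0 and replicates 3 and 4 below it. Signals of this probe were 10.09, 10.25, 9.11 and 9.31 in FSH pools, against 9.95, 10.10, 9.43 and 9.87 in control pools. FSH pools 3 and 4 were the lowest of all 8. The dimmer FDFT1 probe, EMBV3_23196, had a mean on the other side of 0, at 0.089 ± 0.13. LSS encodes lanosterol synthase, the step just after SQLE, and its probe exceeded the limit on 7 arrays in each channel. The LSS ratios were -0.0083, -0.026, -0.24 and 0.48, with a mean of 0.050 ± 0.30 and a 95% interval of -0.26 to 0.36. Only replicate 4 was above 0 for LSS, from array values of 0.24 and 0.71. On the array at 0.71 the raw LSS signals were 174.6 (FSH, Cy3) and 47.9 (control, Cy5). The limits set by the negative controls there were 145.9 and 43.4. With loess on scanner values the LSS mean was -0.026 ± 0.10. Signals this near the limit cannot show whether LSS and SQLE differ in replicate 4. DHCR7 encodes the reductase of the last step to cholesterol. Its ratios were 0.034, 0.031, -0.47 and -0.12, with a mean of -0.13 ± 0.24, and 0.046 when centred on the median with no loess. In the limma fit the adjusted p was 0.728 and 0.753 for the FDFT1 probes, 0.922 for LSS and 0.719 for DHCR7.

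The 2 arrays of a replicate carried the same RNA with the dyes exchanged, so they show how much of a ratio follows dye or slide, which coincide here. For SQLE the arrays of a replicate differed by 0.14 on average, for SCARB1 by 0.11 and for the brightest INSIG1 probe by 0.13, against a median of 0.25 over all tested probes. Differences between replicates were larger for SQLE and SCARB1, with SDs of 0.48 and 0.33. With FSH in Cy5 the mean was -0.74 for SQLE and -0.53 for SCARB1, and with FSH in Cy3 it was -0.61 and -0.48. The limma test of the difference between orientations called 9.54% of probes, and among the 13 member probes it called 1, EMBV3_18281 of INSIG1, with a difference of -0.60 (Cy5 minus Cy3) and an adjusted p of 0.0271.

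**Figure D3:**
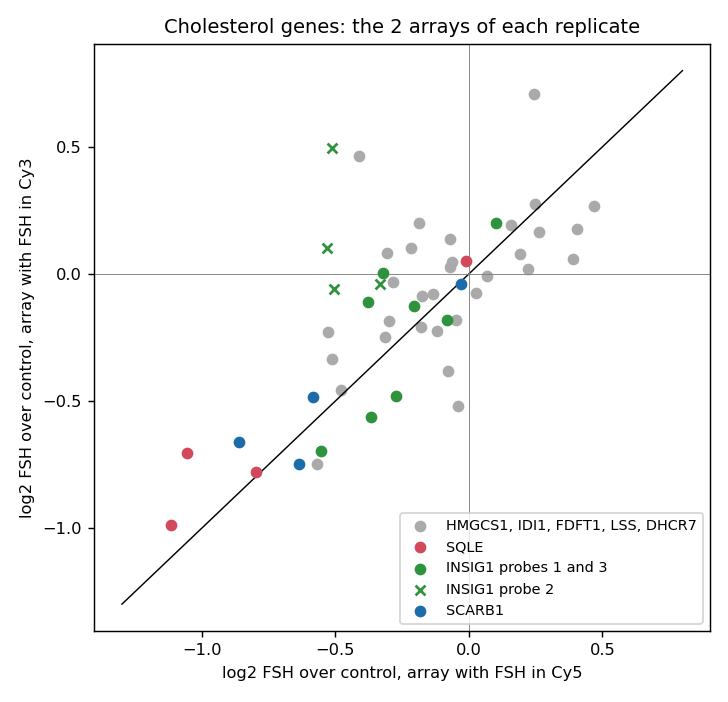
Log2 ratio of FSH over control on the array with FSH in Cy5 (x axis) and on the array with FSH in Cy3 (y axis) for the 13 tested member probes, with 4 points per probe, 1 per replicate; the diagonal marks equal values. Points of SQLE and SCARB1 lie near the diagonal, whereas those of INSIG1 probe 2 (EMBV3_18281) lie left of it, with means of -0.47 and 0.12.

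Of the wider cholesterol system, 48 listed genes were on the array and 44 were tested, 36 of them outside the 8 members. STARD4, ABCA1, LIPE and PLTP were too dim. Limma called 0 of the 44 genes (0% of genes). At an unadjusted p under 0.05, 5 of the 44 were lower with FSH and 1 was higher, against 6.05% and 6.64% of all genes. The median ratio of the 44 was -0.029, with 25 means below 0 and 19 above. These counts include the 8 members, 6 of which had means below 0. The 36 genes outside the members were nearly balanced, with a median of -0.0018, 19 means below 0 and 17 above. Among these 36, that unadjusted threshold was met by 3 genes with means below 0 and by 1 above, and 4 lay below 0 in every replicate. The share below 0 in all 4 replicates was 6 of 44, against 9.06% of all genes, and 0 were above 0 in all 4, against 11.5%.

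**Figure D4:**
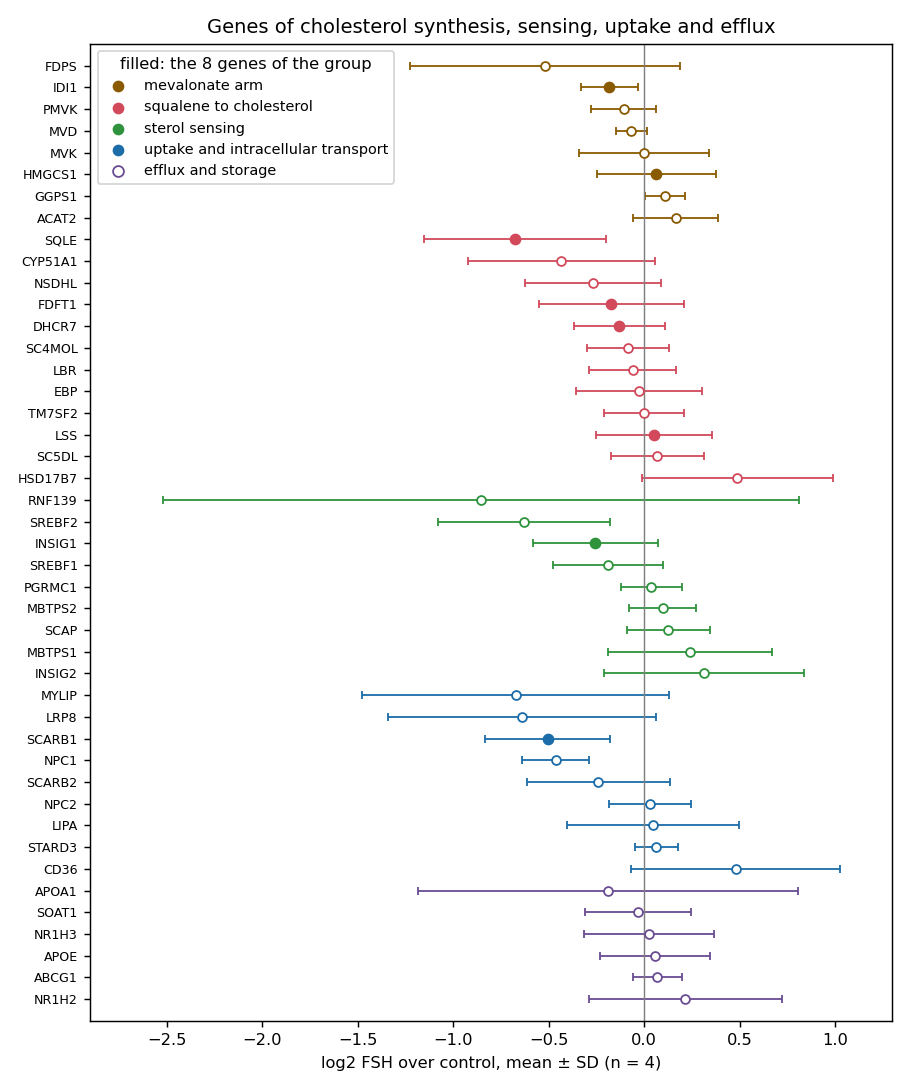
Mean log2 ratio of FSH over control with its SD (n = 4 replicates) for the 44 tested genes, coloured by role, with filled points for the 8 members and open points for the other genes. SQLE is the lowest gene between squalene and cholesterol at -0.68, HSD17B7 the highest at 0.49, and the spread of RNF139 (-0.85 ± 1.66) is the widest.

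Sterol sensing genes other than INSIG1 pointed both ways, with 3 of 8 means below 0 and 5 above. SREBF2, the gene of SREBP-2, had log2 ratios of -0.47, -0.52, -1.28 and -0.24 in replicates 1 to 4 on its brightest probe. All 4 were below 0 and replicate 3 was the lowest, with a mean of -0.63 ± 0.45 (SD, n = 4), a limma unadjusted p of 0.00892 and an adjusted p of 0.341. Its signal was 12.49, 12.27, 13.14 and 13.08 in FSH pools 1 to 4, against 12.86, 12.86, 14.14 and 13.34 in control pools 1 to 4. The other tested SREBF2 probe had ratios of 0.10, -0.32, -0.56 and 0.019, with a mean of -0.19. Without replicate 3, where the control pool was at an extreme in each marker sum, the mean of the bright probe was -0.41. The part of these differences between pools was not tested. Centred on the median with no loess, it was -0.17. With the replicate block the adjusted p of SREBF2 was 0.0375, and 0.058 with the dye term. INSIG2, the paralogue of INSIG1, lay on the other side of 0, at 0.31 ± 0.52 on its bright probe. That probe stood at 0.097 without replicate 3. The other INSIG2 probe had ratios of 0.037, 0.15, 0.59 and 0.41, all above 0. Its mean was 0.30 ± 0.25, with a limma unadjusted p of 0.0357 and an adjusted p of 0.434. RNF139, a sterol-regulated ubiquitin ligase gene, ranged from -2.58 in replicate 2 to 1.10 in replicate 3, with a mean of -0.28 without replicate 2 and -1.51 without replicate 3.

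Among uptake and transport genes, NPC1 had the smallest spread relative to its mean. NPC1 encodes the membrane protein that exports cholesterol from lysosomes. Its log2 ratios were -0.45, -0.42, -0.70 and -0.28 in replicates 1 to 4, all below 0, with a mean of -0.46 ± 0.18 (SD, n = 4). By limma the unadjusted p was 0.00226 and the adjusted p 0.299, with 0.0433 under the replicate block and 0.0704 with the dye term added. Its signal was 7.39, 7.15, 7.52 and 7.50 in FSH pools, against 7.75, 7.47, 8.09 and 7.72 in control pools, lower with FSH within each replicate. Control pool 3, at an extreme of the control pools in each marker sum, was the highest, and the mean ratio was -0.38 without replicate 3. Centred on the median with no loess, its mean was -0.28. LRP8, the gene of a receptor of the LDL receptor family, had ratios of -0.54, 0.32, -1.18 and -1.15, with a mean of -0.64 ± 0.70 and an unadjusted p of 0.0405. Its control pools were nearly equal, between 12.12 and 12.16, while its FSH pools ranged from 10.78 to 12.12. The LRP8 mean was -0.96 without replicate 2, -0.46 without replicate 3 and -0.47 without replicate 4. Centred on the median with no loess, it was -0.44. MYLIP, which encodes a ubiquitin ligase that marks LDL family receptors for breakdown, had a mean of -0.67 ± 0.80, with replicate 2 at -1.68 and replicate 3 at 0.27. Its mean was -0.34 without replicate 2 and -0.38 when centred on the median with no loess. CD36, a scavenger receptor gene, had a mean of 0.48 ± 0.55, and its 3 probes all had means above 0. In order of brightness their unadjusted p by limma was 0.0509, 0.0658 and 0.0370, and the adjusted p 0.468, 0.494 and 0.435. The first and brightest probe had ratios of 0.087, -0.048, 0.79 and 1.09 in replicates 1 to 4. Without replicate 4 the mean of the first probe was 0.28, and centred on the median with no loess 0.75. In single channels all 4 FSH pools (10.14 to 10.99) lay above all 4 control pools (9.47 to 10.12) on that probe, by a narrow margin. This held for 1.67% of all probes, and the pools overlapped on the other CD36 probes.

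Of the synthesis enzymes outside the members, FDPS, the gene of farnesyl diphosphate synthase, rested on a single replicate. Its log2 ratios were -0.067, -0.18, -0.25 and -1.57 in replicates 1 to 4, with a mean of -0.52 ± 0.71 (SD, n = 4) and -0.17 without replicate 4. In replicate 4 the other FDPS probes stood at -1.43, -1.59 and -0.61, so the low value was not that of 1 probe. CYP51A1, which removes a methyl group from lanosterol, had a mean of -0.43 ± 0.49, set by -1.17 in replicate 3, and 0.041 when centred on the median with no loess. Its other probes stood at 0.051 and -0.011. NSDHL, an enzyme gene of the same branch, had a mean of -0.27 ± 0.36, with replicate 1 at 0.23 and the other replicates between -0.28 and -0.60. It was -0.14 when centred on the median with no loess, and -0.44 to -0.16 without 1 replicate. HSD17B7, a reductase of the same branch, had ratios of 0.21, 0.65, -0.018 and 1.11, with a mean of 0.49 ± 0.50, an unadjusted p of 0.0357 and a mean of 0.28 without replicate 4. ACAT2, whose product joins acetyl-CoA units, had a mean of 0.16 ± 0.22 (0.35 when centred on the median with no loess) but -0.18 on its other probe, and the phosphomevalonate kinase gene PMVK stood at -0.11 ± 0.17. Efflux and storage genes had 2 of 6 means below 0. Means were 0.22 ± 0.51 for NR1H2, which encodes the sterol sensor LXR beta, -0.19 ± 0.99 for the apolipoprotein gene APOA1 and 0.068 ± 0.13 for the exporter gene ABCG1. NR1H2, ABCG1 and PMVK differed between dye orientations, with limma adjusted p of 0.0428, 0.0271 and 0.0339. With FSH in Cy5 their means were 0.016, -0.19 and -0.34, and with FSH in Cy3 0.42, 0.32 and 0.13. Limma adjusted p of the FSH effect over the genes named here lay between 0.434 for HSD17B7 and 0.884 for APOA1.

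**Figure D5:**
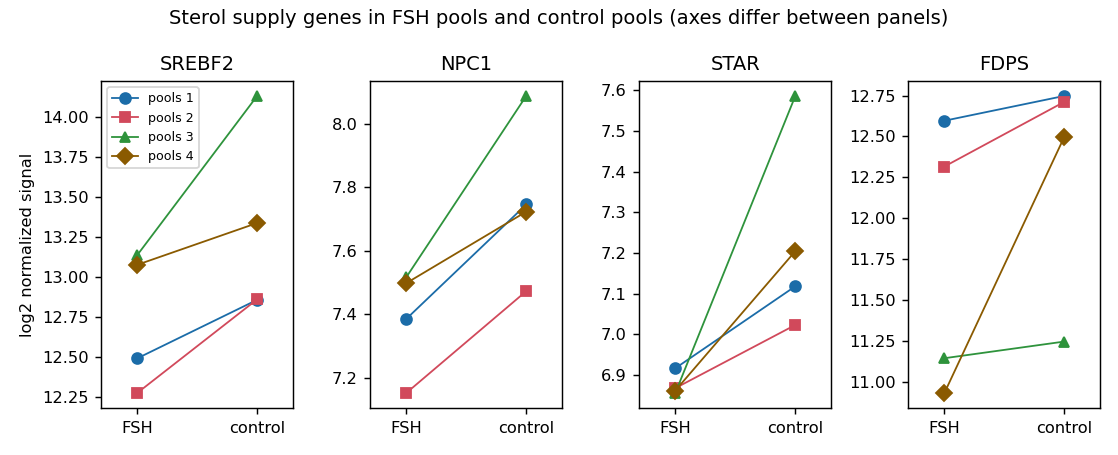
Normalized log2 signal of SREBF2, NPC1, STAR and FDPS in the 4 FSH pools (left in each panel) and the 4 control pools (right), with lines joining pools of the same replicate number; the y axes differ between panels. SREBF2, NPC1 and STAR are lower with FSH in each pair of pools, with control pool 3 highest, and the pair of replicate 4 sets the FDPS difference (10.93 with FSH, 12.50 in control).

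The steroid genes that use this cholesterol had means below 0. STAR, which brings cholesterol to the inner mitochondrial membrane, had log2 ratios of -0.60, -0.27, -0.96 and -0.57 in replicates 1 to 4, a mean of -0.60 ± 0.28 (SD, n = 4) and a limma adjusted p of 0.292 (0.0196 with the replicate block, 0.0337 with the dye term added). Its control pool 3 was the highest, at 7.59, and without replicate 3 its mean was -0.48. Centred on the median with no loess, the STAR mean was -0.31, and with loess on scanner values -0.36. CYP11A1, which cleaves its side chain, stood at -0.44 ± 0.45 and HSD3B1 at -0.30 ± 0.72, with limma adjusted p of 0.436 and 0.727. Both were lowest in replicate 4, at -1.10 and -1.17, and HSD3B1 was at 0.55 in replicate 1. Without replicate 4 the means were -0.22 for CYP11A1 and -0.0065 for HSD3B1, and centred on the median with no loess they were -0.15 and -0.18.

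Over the 8 arrays, the genes whose log2 ratios lay closest to those of SQLE were GATA4, SEMA6D, FMOD, PYGL and PRC1. Likeness was measured as the root mean square difference, which was 0.097 for GATA4, 0.14 for SEMA6D, 0.20 for FMOD, 0.21 for PYGL and 0.21 for PRC1, against a median of 0.85 over 12313 genes. Each had a ratio nearer to 0 in replicate 1 than in the other replicates. GATA4, a transcription factor gene of the gonad, had ratios of -0.032, -0.83, -0.91 and -0.94 in replicates 1 to 4. These genes were picked by their values, so they carry no test.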

How the data were processed

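The deposited scanner files give spot intensity and local background of both channels on a linear scale, per the file headers. The authors' deposited series matrix holds normalized log2 ratios, found to be FSH over control from the labelled dyes and from the correlation across probes with the scanner ratios of each array (0.657 to 0.833). Column medians were 0.0082, 0.0092, -0.0038 and 0.0011 for replicates 1 to 4 with FSH in Cy5 and 0.0089, 0.015, 0.011 and 0.018 with FSH in Cy3. The authors' background correction and normalization are not given in the sources used here.

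The 2 arrays of a replicate were averaged, and limma 3.58.1 in R 4.3.3 (statmod 1.5.0 for blocks) was fitted over all tested probes, with Benjamini-Hochberg adjustment at 0.05. A probe was tested if its signal exceeded the mean plus 2 SD of the negative controls in 3 or more replicates, averaged over both arrays, in either channel. Single channels were computed from the scanner files by normexp (offset 50), loess and Aquantile. Probes were named by the platform annotation, which can be old (21790 with 1 symbol, 0 with several, 22004 with none). A gene stands for its brightest probe. Outside the members, genes were named by size within each pathway list (the 3 with the largest mean ratio, and any at an unadjusted p under 0.05), STAR, CYP11A1 and HSD3B1 by name, and 5 by likeness to SQLE.

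Same-numbered arrays carry the same pools per the labels, and their deviations correlated with r of 0.475 to 0.708, against -0.415 to -0.0295 for other numbers. Deviations were taken from each probe's mean over the arrays of a slide, which by itself pushes the values for other numbers below 0. The labels call the replicates biological. Members and lists were chosen with earlier results of these data known. The fit was tested on simulated data.

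Alternatives were scanner ratios with normexp and loess or centred on the median, the replicate block with and without a dye term, each slide alone, other dimness filters, the median over the probes of a gene, single channels without Aquantile, and leaving out each replicate. Genome coordinates and sequences were not used here.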

Additional observations from a re-analysis of the deposited data

Results flagged for a closer look

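In tests of 39 sets of 4 values (ratios, FSH pools and control pools of the 13 tested member probes), 4 had a replicate far from the others, where chance gives about 1 in 20. The dimmer FDFT1 probe had its highest log2 signal in the pools of replicate 2, at 7.37 in FSH pool 2 and 7.17 in control pool 2. On the array with FSH in Cy3 its raw signals were 199.9 (FSH) and 69.3 (control), though that array had the lowest Cy3 median, 55.7. On the array with FSH in Cy5 they were 51.1 and 154.8, not above the other replicates. Both high values thus came from the same array. LSS stood at 6.73 in control pool 3, above the other control pools. Its raw control signals in replicate 3 were 192.4 (Cy3) and 64.2 (Cy5), against limits of 192.1 and 82.2. This value was therefore near or below the level of the limit. INSIG1 probe EMBV3_18281 stood at 6.86 in FSH pool 4, below the other FSH pools. The same INSIG1 probe differed between the dye orientations by -0.60 on the log2 scale (FSH in Cy5 minus FSH in Cy3), and it was the only one of the 13 member probes that did so by the limma test.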

How the results depend on the processing

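No probe, member or listed gene was called by limma when ratios came from the scanner files, with or without loess, or when the dimness filter was removed or tightened. Members were called only with the replicate block, 2 without and 1 with a dye term, among 598 and 430 probes in all. Over the listed genes, which include the members, the calls were 4 and 1. Those outside the members were SREBF2 and NPC1, both without the dye term only. The slide with FSH in Cy5 alone gave 47 called probes and the other slide 2. Leaving out 1 replicate gave 0 to 40 called probes, the 40 without replicate 3, and 0 members or listed genes. The member median was 0.0061 with median centring and -0.25 to -0.13 without 1 replicate. The median of the listed genes was 0.12 with median centring, -0.12 within the slide with FSH in Cy5 and -0.075 to -0.016 without 1 replicate. Loess on scanner values gave 9536 probes that differed between orientations (3070 in the series matrix). Without Aquantile, 1 member probe had pools that did not overlap, not 2. Of 153 member values under alternatives, 136 kept their sign; those of SQLE, SCARB1 and 2 INSIG1 probes (EMBV3_36644 and EMBV3_40898) kept it under all 12. The sign turned with loess on scanner values for HMGCS1 EMBV3_08646 (0.0097) and LSS (-0.026). With median centring it turned for HMGCS1 EMBV3_28348 (0.065) and EMBV3_08646 (0.10), IDI1 (0.074), FDFT1 EMBV3_14929 (0.11), LSS (-0.034), DHCR7 (0.046), CYP51A1 (0.041) and APOA1 (0.075). With FSH in Cy5 alone it turned for FDFT1 EMBV3_23196 (-0.052), LSS (-0.023) and ABCG1 (-0.19), and with FSH in Cy3 alone for HMGCS1 EMBV3_14732 (-0.040) and EMBV3_28348 (0.0024), INSIG1 EMBV3_18281 (0.12) and PMVK (0.13). Leaving out 1 replicate gave a range across 0 for HMGCS1 EMBV3_14732 (-0.037 without replicate 4, -0.011 without replicate 1, up to 0.16), HMGCS1 EMBV3_28348 (-0.18 to 0.040, the last without replicate 3), and, each with the sign turned without replicate 4, LSS (-0.092 to 0.15), NR1H2 (-0.012 to 0.35) and APOA1 (-0.48 to 0.27). The causes were not tested.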
